A study of Homo sapiens with 6 samples.

Results

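Peroxiredoxins and thioredoxins were followed across 6 RNA sequencing libraries of A549, a cell line grown from a human lung adenocarcinoma. The members were 9 genes chosen by symbol, the peroxiredoxins PRDX1 to PRDX6, the thioredoxins TXN and TXN2 and the thioredoxin inhibitor TXNIP, out of 58735 genes in the deposited tables. All 9 symbols had 1 row each. A549 with overexpression of GPX3, titled OE_GPX3 and given the genotype and treatment OE, had 3 libraries, and its control, titled Vector and given as WT for both, had 3. GPX3 encodes a secreted glutathione peroxidase, which reduces peroxides with electrons from glutathione. The labels describe neither the expression construct nor whether the lines were clones or pools, and they do not tie the replicates to separate cultures, so every p-value here measures the spread between these libraries, which may be technical.

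Peroxiredoxins are cysteine-based peroxidases. A peroxide oxidises the reactive cysteine, and in most members the resulting disulfide is reduced by thioredoxin, which is in turn reduced by a thioredoxin reductase with electrons from NADPH. PRDX1, PRDX2 and PRDX6 act mainly in the cytosol, PRDX3 in mitochondria, PRDX4 in the endoplasmic reticulum, and PRDX5 in mitochondria, peroxisomes and cytosol. TXN is the cytosolic and nuclear thioredoxin and TXN2 the mitochondrial one. TXNIP is an arrestin-like protein that binds reduced thioredoxin and whose transcription is known to rise with glucose through the factors MLX and MLXIP (MondoA).

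The sequence before the transcript start was available for 6 of the 9 members in RefSeq (GRCh38.p14). Of those 6, the 250 bases upstream of the start are printed for TXNIP, whose control by glucose acts on this stretch, for TXN, its binding partner, for PRDX5, which had the largest fold change of the members, and for PRDX2, which was nearly without counts. Each is on the strand of its gene, 5′ to 3′, at chr1:145996580-145996829, chr9:110256508-110256757, chr11:64317871-64318120 and chr19:12801801-12802050, with the PRDX5 stretch on the plus strand and the other three on the minus strand. Capitals mark every match to 1 of 6 searched motifs on either strand, namely the E-box CACGTG, an imperfect E-box repeat (2 copies of CACGAG with 5 bases between them), the antioxidant response element core TGACNNNGC, the CCAAT box, the TATA box TATAAA and the GC box GGGCGG.
TXNIP: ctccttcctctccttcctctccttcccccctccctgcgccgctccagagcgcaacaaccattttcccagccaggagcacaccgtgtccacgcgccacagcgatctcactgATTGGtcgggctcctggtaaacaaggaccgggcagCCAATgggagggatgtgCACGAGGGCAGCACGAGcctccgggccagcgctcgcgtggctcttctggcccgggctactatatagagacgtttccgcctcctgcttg
TXN: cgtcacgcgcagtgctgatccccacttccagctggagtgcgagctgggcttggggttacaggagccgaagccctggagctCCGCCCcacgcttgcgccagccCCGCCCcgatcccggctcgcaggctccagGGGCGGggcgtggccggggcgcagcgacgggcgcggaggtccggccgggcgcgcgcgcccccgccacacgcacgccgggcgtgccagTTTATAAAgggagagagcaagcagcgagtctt
PRDX5: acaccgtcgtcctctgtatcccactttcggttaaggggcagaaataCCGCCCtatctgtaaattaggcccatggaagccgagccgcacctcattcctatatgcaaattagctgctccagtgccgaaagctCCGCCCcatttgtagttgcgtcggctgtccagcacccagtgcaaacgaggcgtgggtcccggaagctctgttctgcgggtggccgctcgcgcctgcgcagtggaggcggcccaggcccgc
PRDX2: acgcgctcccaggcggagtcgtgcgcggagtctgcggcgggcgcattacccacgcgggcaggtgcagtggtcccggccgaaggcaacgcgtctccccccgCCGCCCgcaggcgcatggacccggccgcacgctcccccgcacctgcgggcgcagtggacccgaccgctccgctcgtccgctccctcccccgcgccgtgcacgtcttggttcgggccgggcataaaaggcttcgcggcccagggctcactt
The TXNIP stretch held the imperfect E-box repeat at bases -88 to -72 and a CCAAT box on each strand, at -140 to -136 and at -105 to -101. That repeat was in 2 of 35093 such promoter stretches, those of TXNIP and KCTD5, or 0.00570%, whereas CCAAT was in 32.0%. The repeat was searched because it is known from TXNIP, so its presence there is no result. The TXN stretch held TATAAA at -30 to -25, with an overlapping match on the other strand at -32 to -27, and 3 GC boxes, where 10.7% of promoters held the TATA box and 42.6% the GC box. The PRDX5 stretch held 2 GC boxes and the PRDX2 stretch 1. Among the others with a sequence, PRDX3 and PRDX4 each held 1 CACGTG, a motif in 6.34% of promoters. TGACNNNGC, in 10.9% of promoters, was found in 0 of the 6 stretches. These matches describe the printed letters and show no binding.

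Total counts ranged from 15831693 to 18751815 per library. GPX3 had 23372, 17470 and 20984 counts in the OE_GPX3 libraries, against 638, 658 and 648 in the Vector libraries, in keeping with the labels. All 6 genes chosen as markers of the line (KRT8, KRT18, CDH1, AKR1B10, AKR1C1 and ALDH1A1) were at or above 149 CPM (counts relative to the TMM-scaled library size) in every library, and CDKN2A, which the line has lost, had 1 count in all. Markers of leukocytes, endothelium, fibroblasts and differentiated alveolar cells (6 genes) summed to 4.01 to 7.57 CPM in OE_GPX3 and 4.18 to 4.77 CPM in Vector, and 1 of these 6, COL1A1, passed the filter on low counts. Over the whole table edgeR's quasi-likelihood test called 38 of 14458 tested genes at an adjusted p under 0.05, which is 0.263%, 14 higher and 24 lower in OE_GPX3. With total counts alone as scaling the split was 13 higher and 55 lower, and with DESeq2 68 higher and 48 lower. Leaving out OE_GPX3 replicate 1 gave 657 calls, leaving out OE_GPX3 replicate 2 gave 1, GPX3, and leaving out any other library gave 4 to 116.

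Levels per gene length spanned a wide range across the family, and the order of the group means was the same in both groups. The deposited FPKM (fragments per kilobase of gene length, scaled to library depth) placed PRDX5, TXN and PRDX1 at the top, PRDX6 and PRDX4 in the middle, PRDX3 and TXN2, both mitochondrial, below them, TXNIP far lower and PRDX2 close to 0. PRDX5 stood at 449, 610.4 and 545 FPKM in OE_GPX3, against 432, 414 and 502 FPKM in Vector. TXN stood at 388, 487 and 384 FPKM in OE_GPX3, against 436, 449.7 and 443 FPKM in Vector. In Vector the ranges of PRDX5 and TXN overlapped and PRDX5 was the higher in 1 of 3 libraries, while in OE_GPX3 they overlapped too with PRDX5 higher in 3 of 3. PRDX1 followed at 373, 424 and 340.4 FPKM in OE_GPX3, against 347, 302 and 351 FPKM in Vector. Its range overlapped that of TXN in OE_GPX3 and lay below it in Vector, and in both groups TXN was above PRDX1 in 3 of 3 libraries. PRDX6 averaged 144 ± 6.87 FPKM in OE_GPX3 and 136 ± 6.27 FPKM in Vector, and PRDX4 102 ± 6.91 FPKM in OE_GPX3 and 94.9 ± 2.80 FPKM in Vector (SD, n = 3 each). Each of these 2 was apart from its neighbours in both groups. PRDX3 averaged 44.6 ± 3.80 FPKM in OE_GPX3 and 50.3 ± 2.19 FPKM in Vector, and TXN2 40.9 ± 3.83 FPKM in OE_GPX3 and 36.2 ± 1.85 FPKM in Vector (SD, n = 3 each). The ranges of PRDX3 and TXN2 overlapped in OE_GPX3 and did not in Vector. TXNIP stood at 10.3, 7.67 and 7.14 FPKM in OE_GPX3, against 9.22, 7.88 and 9.20 FPKM in Vector.

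**Figure D1:**
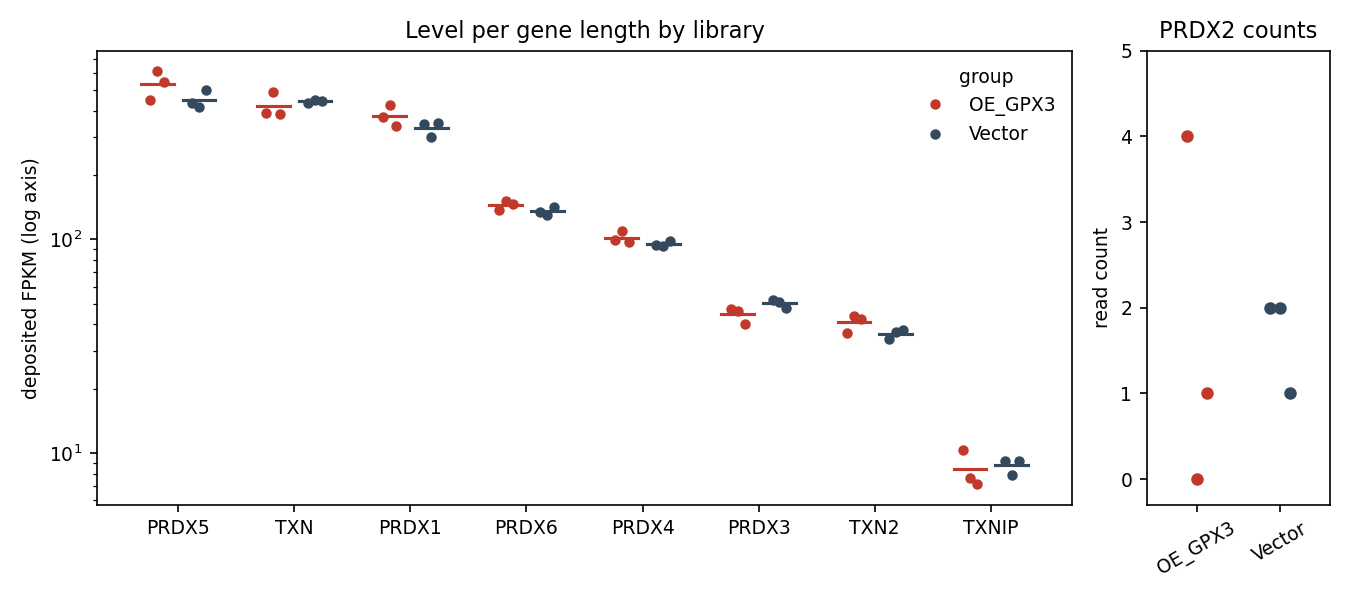
Deposited FPKM (left, log axis) of 8 members in each library, as 3 points per group with a line at the mean, and read counts of PRDX2 (right, linear axis), with OE_GPX3 left of Vector. The order falls from PRDX5, TXN and PRDX1 at 302 to 610.4 FPKM to TXNIP at 7.14 to 10.3 FPKM, and PRDX2 had 0 to 4 counts.

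Within the 6 peroxiredoxins, PRDX5 made up 44.3% ± 3.21 of their summed FPKM in OE_GPX3 and 42.2% ± 1.62 in Vector (SD, n = 3 each). PRDX1 made up 31.5% ± 2.32 in OE_GPX3 and 31.3% ± 1.22 in Vector (SD, n = 3 each). The mitochondrial PRDX3 contributed 4.28%, 3.45% and 3.44% in the OE_GPX3 libraries, against 4.92%, 5.15% and 4.20% in the Vector libraries. The lowest Vector value was below the highest OE_GPX3 value, so the groups overlapped for that share. For 1 cytosolic and mitochondrial pair, the ratio of TXN to TXN2 in FPKM was 10.6, 11.1 and 9.11 in OE_GPX3, against 12.8, 12.2 and 11.8 in Vector. The groups did not overlap in 3 of the 6 ratios computed, which were given no test. TXN was in every computed ratio except PRDX5 to PRDX3, so its presence in all 3 does not set it apart. These 3 share TXN and so are not separate observations, and no share over other gene pairs was computed. The other two were PRDX1 to TXN, at 0.961, 0.870 and 0.887 in OE_GPX3, against 0.795, 0.671 and 0.793 in Vector, and PRDX5 to TXN, at 1.16, 1.25 and 1.42 in OE_GPX3, against 0.991, 0.921 and 1.13 in Vector. All 3 ratios set TXN against a transcript of higher GC content, and TXN had the lowest GC content of the members. With the GC correction described further on, the log2 fold changes of TXN and TXN2 were 0.038 and 0.070, against -0.093 and 0.16 without it. Those of PRDX1 and PRDX5 were 0.16 and 0.094 with it, against 0.17 and 0.24 without it. Whether GC content accounts for these ratios was not tested.

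PRDX2, a cytosolic peroxiredoxin best known as an abundant protein of red blood cells, was the exception of the family, with almost no reads. Its counts were 4, 0 and 1 in OE_GPX3, against 2, 2 and 1 in Vector. Both groups summed to 5 counts, or, per total count and without TMM scaling, 0.0975 CPM in OE_GPX3 (exact 95% Poisson interval 0.0317 to 0.228) and 0.0954 CPM in Vector (0.0310 to 0.223), and these intervals cover counting error only. The library at 0 allows up to 0.169 CPM on the same unscaled basis, the worth of 3 counts. No fold change is given for PRDX2, which did not pass the filter on low counts. Of 19951 protein-coding genes, 28.8% had as few counts as the 10 of PRDX2 over all libraries, or fewer. The gene (ENSG00000167815, chromosome 19, 12796820 to 12801859, minus strand, hg38) lies wholly within the annotated span of HOOK2 on the same strand, yet their exons share 0 bases in GENCODE release 29. With AC018761.2 on the other strand, which had 0 counts, it shares 296 of its 2093 exonic bases. Of the 50-base words of its longest transcript, 11.7% also occur in transcripts of other genes, among them the pseudogenes PRDX2P1 and PRDX2P4, and its 4 pseudogene rows held 3 counts in all.

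Low counts around PRDX2 were not limited to it. The nearby RNASEH2A, which encodes the catalytic subunit of RNase H2, had 12, 13 and 6 counts in OE_GPX3, against 5, 8 and 4 in Vector. Of the 50-base words of its longest transcript, 41.0% also occur in transcripts of other genes, THSD8 beside it among them. JUNB, a transcription factor gene on the other side of PRDX2 that also lies in the span of HOOK2, had 2088, 2329 and 2037 counts in OE_GPX3, against 2242, 2694 and 2321 in Vector. HOOK2 itself had 359, 360 and 349 counts in OE_GPX3, against 363, 431 and 351 in Vector. Whether the low count of PRDX2 reflects its RNA or the way reads were assigned in this region was not tested.

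**Figure D2:**
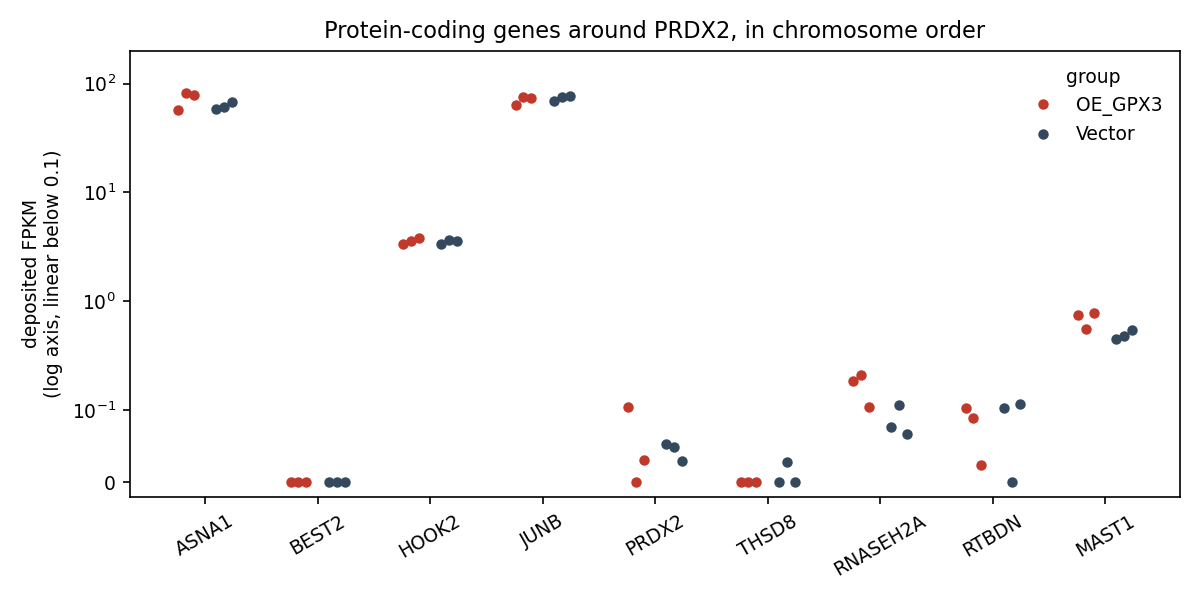
Deposited FPKM of the protein-coding genes within 50000 bases of PRDX2, in chromosome order, with 3 points per group, OE_GPX3 left of Vector, on an axis that is logarithmic above 0.1 and linear below. PRDX2 and RNASEH2A stay at or below 0.211 FPKM in all libraries, while JUNB is at 63.8 to 77.5 FPKM.

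Overexpression of GPX3 was compared with vector for the 8 members that passed the filter, and none of the 8 was called. By edgeR's quasi-likelihood test with adjustment over all 14458 genes, 0 of 8 were higher and 0 lower, where 0.263% of all tested genes were called. At an unadjusted p under 0.05 there was 1, PRDX5, where 14.6% of all tested genes had such a p, and DESeq2 and limma on the FPKM called 0. The 95% confidence intervals of the 8 together ran from a fold change of 0.758 to one of 1.37. In bulk RNA a difference in all cells and one in some of them cannot be told apart. The median log2 fold change of the 8 was 0.08, against -0.02 over all tested genes, and 5 were above 0 and 3 below.

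The cytosolic PRDX1 (ENSG00000117450, chromosome 1, 45511036 to 45523047, minus strand, hg38 as for all positions given) averaged 578 ± 64.2 CPM in OE_GPX3 and 513 ± 42.0 CPM in Vector (SD, n = 3 each). Its log2 fold change was 0.17 (95% interval -0.04 to 0.39, edgeR adjusted p = 0.451), and the groups overlapped. PRDX1 shares 379 of its 1522 exonic bases with MMACHC on the other strand, whose counts were 110 to 126 in OE_GPX3 and 92 to 95 in Vector, beside 7951 to 10911 counts of PRDX1 over the 6 libraries. PRDX6 (ENSG00000117592, chromosome 1, 173477266 to 173488807, plus strand), which uses glutathione rather than thioredoxin as reductant and also has phospholipase activity, averaged 342 ± 14.4 CPM in OE_GPX3 and 324 ± 13.9 CPM in Vector (SD, n = 3 each). Its log2 fold change was 0.08 (95% interval -0.13 to 0.28, edgeR adjusted p = 0.749). PRDX4 (ENSG00000123131, chromosome X, 23664262 to 23686399, plus strand), the peroxidase of the endoplasmic reticulum, averaged 194 ± 13.0 CPM in OE_GPX3 and 183 ± 4.69 CPM in Vector (SD, n = 3 each). On the log2 scale its fold change was 0.09 (95% interval -0.12 to 0.29, edgeR adjusted p = 0.705).

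Of the mitochondrial members, PRDX5 had the largest estimate. PRDX5 (ENSG00000126432, chromosome 11, 64318088 to 64321811, plus strand) stood at 404, 544 and 485 CPM in OE_GPX3, against 393, 374 and 451 CPM in Vector. OE_GPX3 replicate 1 lay within the Vector range and the other two above it. The log2 fold change was 0.24 with a standard error of 0.11 and an interval of 0.01 to 0.46 (edgeR adjusted p = 0.321). PRDX3 (ENSG00000165672, chromosome 10, 119167703 to 119178833, minus strand) stood at 163, 158 and 137 CPM in OE_GPX3, against 181, 176 and 165 CPM in Vector. Every OE_GPX3 library was below every Vector library, the only member for which the groups did not overlap, where 18.5% of all tested genes did not overlap in either direction. The log2 fold change was -0.19 with a standard error of 0.10 and an interval of -0.40 to 0.02 (edgeR adjusted p = 0.391). TXN2 (ENSG00000100348, chromosome 22, 36467036 to 36482030, minus strand), which reduces PRDX3, averaged 83.8 ± 7.37 CPM in OE_GPX3 and 75.0 ± 3.47 CPM in Vector (SD, n = 3 each). On the log2 scale its fold change was 0.16 (95% interval -0.06 to 0.38, edgeR adjusted p = 0.492).

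TXN (ENSG00000136810, chromosome 9, 110243811 to 110256640, minus strand) stood at 447, 555 and 436 CPM in OE_GPX3, against 507, 519.6 and 509 CPM in Vector. The coefficient of variation was 13.7% over the OE_GPX3 libraries, which lay on both sides of the Vector values, and 1.37% over the Vector libraries. The log2 fold change was -0.09 (95% interval -0.31 to 0.12, edgeR adjusted p = 0.700). TXNIP (ENSG00000265972, chromosome 1, 145992435 to 145996600, minus strand) stood at 37.7, 27.7 and 25.8 CPM in OE_GPX3, against 34.0, 28.9 and 33.6 CPM in Vector. OE_GPX3 replicate 1 was the highest of the 6 libraries and OE_GPX3 replicate 3 the lowest. The log2 fold change was -0.08 (95% interval -0.35 to 0.19, edgeR adjusted p = 0.808), and the ratio of TXN to TXNIP in FPKM was 51.7 ± 13.1 in OE_GPX3 and 50.8 ± 5.41 in Vector (SD, n = 3 each).

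**Figure D3:**
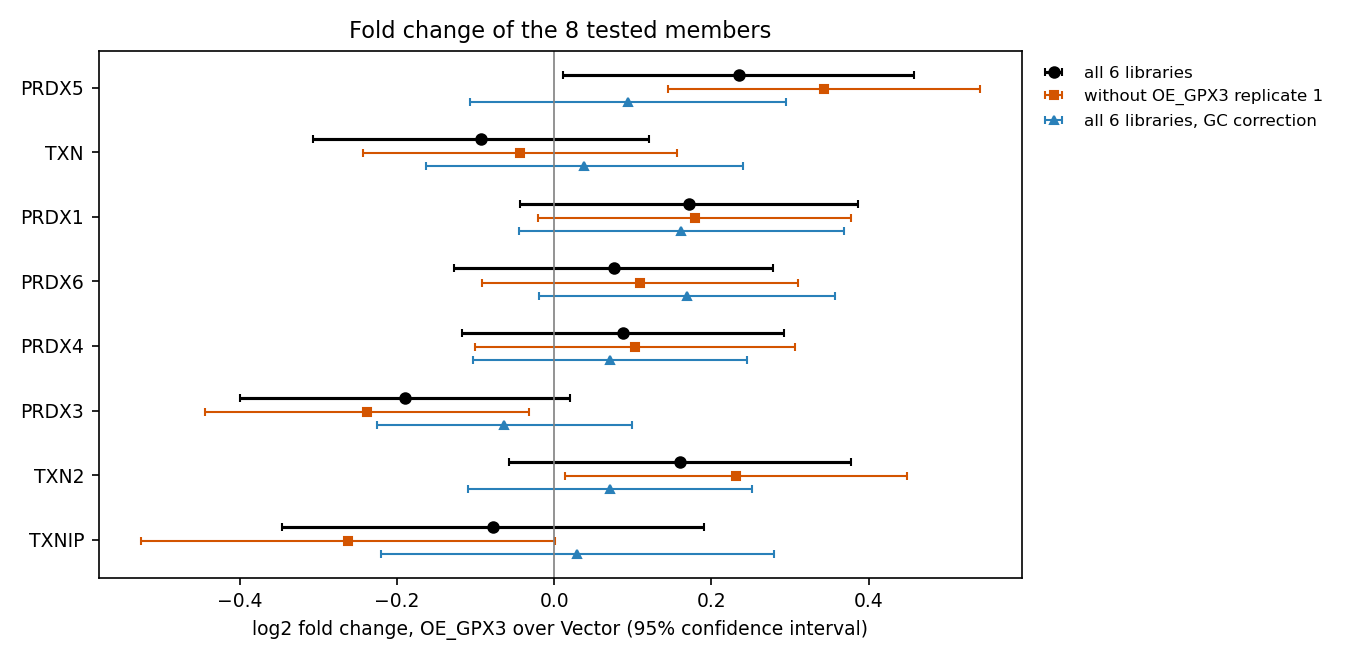
Log2 fold change of OE_GPX3 over Vector with its 95% confidence interval for the 8 tested members, from all 6 libraries, without OE_GPX3 replicate 1, and with a GC correction. With all 6 libraries PRDX5 is the 1 member whose interval leaves out 0 (0.01 to 0.46), and with the GC correction all 8 intervals include 0.

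The fold changes of several members moved when single libraries were left out. OE_GPX3 replicate 2 was the highest library for 6 of the 8 members, and Vector replicate 2 the lowest for 4. The same shares over all tested genes were not computed, so whether these counts are particular to the members is not known. Without OE_GPX3 replicate 1, PRDX5 was called higher at a log2 fold change of 0.34 (95% interval 0.14 to 0.54, edgeR adjusted p = 0.0284), in a fit that called 657 genes. Without OE_GPX3 replicate 2 it was 0.14 (edgeR adjusted p = 0.600). In the fit without OE_GPX3 replicate 1 the intervals of 3 members left out 0. Of these, TXN2 at 0.23 (edgeR adjusted p = 0.207) and PRDX3 at -0.24 (edgeR adjusted p = 0.167) were not called. TXNIP had -0.26 there (edgeR adjusted p = 0.244), and 0.037 without OE_GPX3 replicate 3. PRDX1 ran from 0.096 without OE_GPX3 replicate 2 to 0.26 without OE_GPX3 replicate 3, PRDX3 was -0.11 without OE_GPX3 replicate 3, and TXN ran from -0.20 without OE_GPX3 replicate 2 to -0.016 without OE_GPX3 replicate 3. Counting error was between 1.03% and 4.30% of a member's mean count, below the spread between libraries for all 8 in OE_GPX3.

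The direction of the members split by the GC content of their transcripts, and direction also went with GC content over the whole table. The 3 members below 0 were those of lowest GC, TXN at 42.8%, PRDX3 at 43.1% and TXNIP at 43.9% over the longest transcript, and the members above 0 had 45.2% (PRDX6), 51.4% (PRDX1), 51.7% (PRDX4), 56.2% (TXN2) and 61.5% (PRDX5). Among all tested genes the median log2 fold change was -0.16 for the 5089 genes with a GC content below 45%, of which 19.6% were above 0, and 0.14 for the 4439 genes of 55% or more, of which 78.3% were above 0. PRDX6 went against its GC range, of 45% to below 50%, where the median was -0.05 and 38.8% of genes were above 0. Set against the median of its own GC range, TXN2 differed by 0.021, PRDX3 by -0.030, PRDX4 by 0.050, TXN by 0.067, TXNIP by 0.082, PRDX5 by 0.096, PRDX6 by 0.13 and PRDX1 by 0.13 on the log2 scale. With a correction for GC content in each library, 7 of the 8 members were above 0, by at most 0.17, and 0 were called (lowest edgeR adjusted p = 0.578, with 0 at an unadjusted p under 0.05). TXN then had 0.038 and TXNIP 0.030, PRDX3 -0.06 and PRDX5 0.09. PRDX6 was further from 0 with the correction, at 0.17 and an interval of -0.02 to 0.36, than without it, at 0.08.

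**Figure D4:**
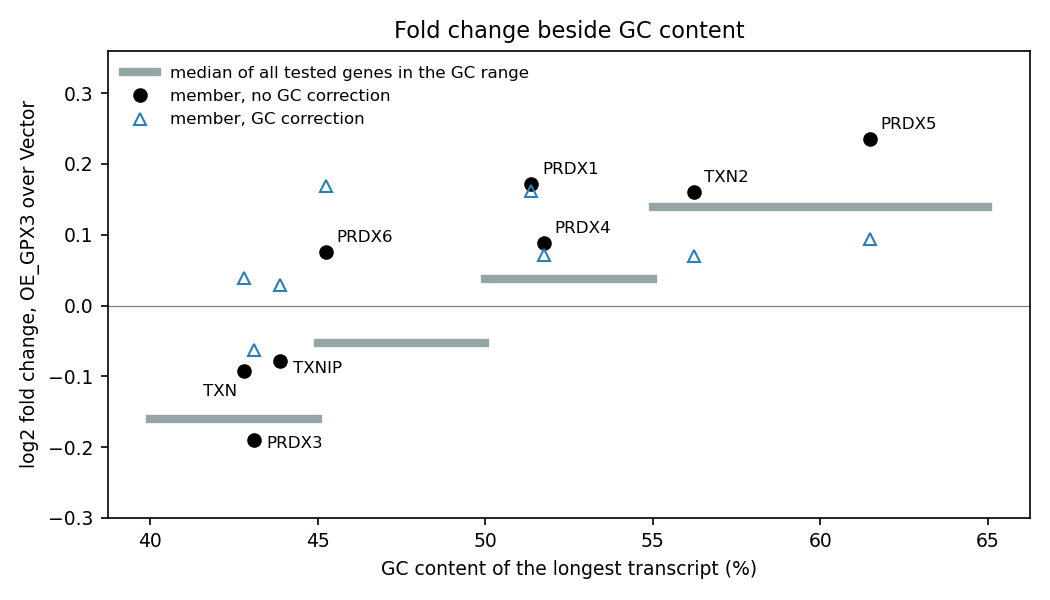
Log2 fold change of OE_GPX3 over Vector against the GC content of the longest transcript (in percent) for the 8 tested members, without (filled circles) and with (open triangles) a GC correction, with grey bars at the median of all tested genes in 4 GC ranges. The uncorrected values mostly climb with GC, as do the grey bars, from -0.16 below 45% to 0.14 at 55% or more. PRDX6 lies above 0 while the bar of its range lies below. The corrected values lie between -0.06 and 0.17.

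The genes around the system were read in 4 lists (42 symbols, 37 tested), and 0 were called by edgeR, DESeq2 or limma, with 4 of the 37 at an unadjusted p under 0.05 in edgeR, where 14.6% of all tested genes had one. The groups did not overlap for 5 of the 37, where 18.5% of all tested genes did not. The first list held 7 genes, the thioredoxin reductases TXNRD1 to TXNRD3, SRXN1 and the sestrins SESN1 to SESN3. Of these, 3 were above 0 and 4 below, with a median log2 fold change of -0.05. TXNRD1, the cytosolic reductase of TXN, stood at 1092, 1119 and 989 CPM in OE_GPX3, against 1247, 1328 and 1221 CPM in Vector. All OE_GPX3 libraries were below all Vector libraries, and the log2 fold change was -0.25 (95% interval -0.45 to -0.04, edgeR adjusted p = 0.272). With the GC correction it was -0.15 (edgeR adjusted p = 0.616), with an interval that included 0. SRXN1, sulfiredoxin, which restores hyperoxidised peroxiredoxins, had 66.5, 70.4 and 77.0 CPM in OE_GPX3, against 63.4, 45.5 and 67.5 CPM in Vector, with a log2 fold change of 0.28 (edgeR adjusted p = 0.294). It was 0.12 without Vector replicate 2 (edgeR adjusted p = 0.820) and 0.23 with the GC correction (edgeR adjusted p = 0.548). SRXN1 shares 2292 of its 2698 exonic bases with AL121758.1 on the same strand, so its counts are uncertain. SESN2, a stress-induced sestrin, had 44.0, 58.0 and 78.9 CPM in OE_GPX3, against 59.1, 118 and 86.9 CPM in Vector, a log2 fold change of -0.55 (edgeR adjusted p = 0.543). Without Vector replicate 1 SESN2 was called lower at -0.77 (edgeR adjusted p = 4.35e-06), while it was -0.28 without Vector replicate 2 (edgeR adjusted p = 0.781) and -0.36 without OE_GPX3 replicate 1 (edgeR adjusted p = 0.665). With the GC correction SESN2 was further from 0, at -0.69 (edgeR adjusted p = 0.589). SESN2 was singled out after its values were seen.

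Of 15 tested members of the list of other thioredoxin-fold proteins, 7 were above 0 and 8 below, with a median of -0.01. TXNDC5, a disulfide isomerase of the endoplasmic reticulum, had 196, 185 and 141 counts in OE_GPX3, against 45, 46 and 156 in Vector. Vector replicate 3 lay within the OE_GPX3 range and the other two Vector libraries far below it. Its log2 fold change of 1.13 carried an interval of -0.53 to 2.79 (edgeR adjusted p = 0.478), and without Vector replicate 3 it was 2.09 and called (edgeR adjusted p = 5.3e-06). TXNDC5 shares 60.6% of its exonic bases with the readthrough gene BLOC1S5-TXNDC5 on the same strand, which was listed at 0 counts in all 6 libraries, so its counts are uncertain too. NXN, nucleoredoxin, was higher in each OE_GPX3 library than in any Vector library, at 71.7 ± 2.58 CPM in OE_GPX3 and 60.1 ± 4.32 CPM in Vector (SD, n = 3 each), with a log2 fold change of 0.25 (edgeR adjusted p = 0.279), and of 0.13 with the GC correction (edgeR adjusted p = 0.677).

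Among 7 enzymes that thioredoxin keeps reduced, the methionine sulfoxide reductases and ribonucleotide reductase subunits, 2 were above 0 and 5 below, with a median of -0.10. RRM2B, the p53-induced subunit of ribonucleotide reductase, had the lowest p of all the genes in the 4 lists, at 19.1, 26.5 and 23.2 CPM in OE_GPX3, against 33.1, 29.7 and 30.2 CPM in Vector. The groups did not overlap and the log2 fold change was -0.44 (95% interval -0.70 to -0.17, edgeR adjusted p = 0.131). With the GC correction it was -0.25 (edgeR adjusted p = 0.503). MSRB2, the mitochondrial methionine sulfoxide reductase, had 0.23 (edgeR adjusted p = 0.387), and 0.16 to 0.30 when leaving out each library. With the GC correction MSRB2 was further from 0, at 0.26 (edgeR adjusted p = 0.470). Of 8 tested relatives and regulators of TXNIP, 5 were above 0 and 3 below, with a median of 0.04 and 0 at an unadjusted p under 0.05. ARRDC4, an arrestin-domain gene that glucose also induces through MLXIP, had 4.43, 4.13 and 3.70 CPM in OE_GPX3, against 5.76, 4.37 and 4.65 CPM in Vector, a log2 fold change of -0.27 (edgeR adjusted p = 0.556) that was -0.14 without Vector replicate 1 and also with the GC correction. MLX, the partner of MLXIP, had 0.17 (edgeR adjusted p = 0.496), and 0.10 without Vector replicate 1.

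**Figure D5:**
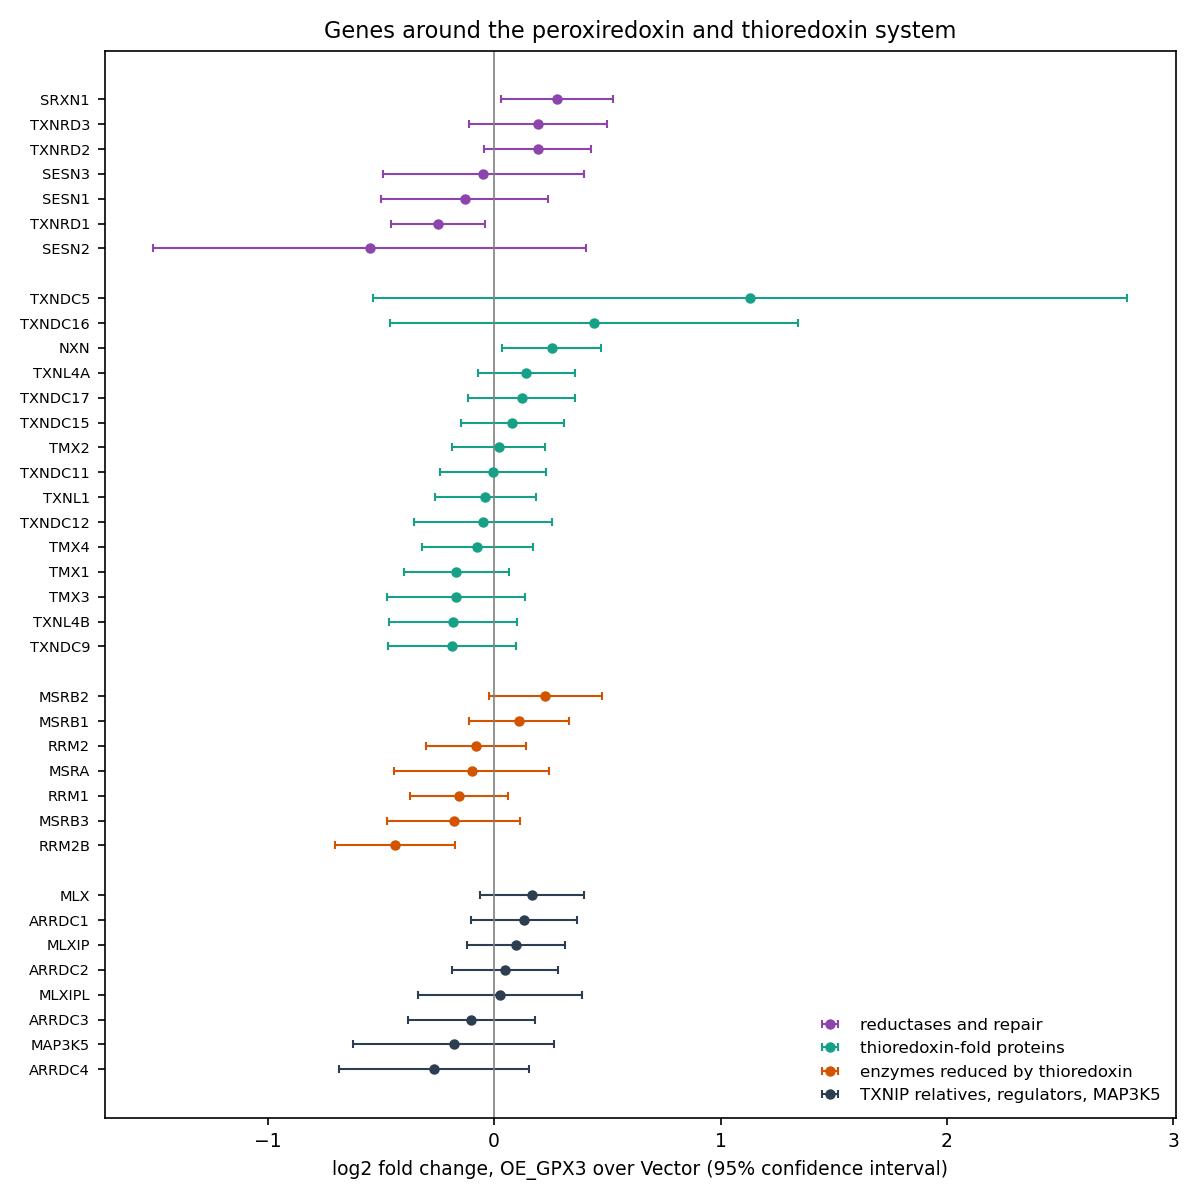
Log2 fold change of OE_GPX3 over Vector with its 95% confidence interval for the 37 tested genes of the 4 lists around the thioredoxin system. TXNRD1 (-0.25) and RRM2B (-0.44) lie below 0 with their intervals, SRXN1 (0.28) and NXN (0.25) above, with no GC correction, and TXNDC5 has the widest interval, -0.53 to 2.79.

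The gene whose log2 CPM ran most alike over the 6 libraries was sought for each member among 9973 protein-coding genes of at least 5 CPM. It was CYP51A1 for PRDX1 (Pearson r = 0.985), RABGAP1 for PRDX3 (r = 0.996), IGFBP7 for PRDX4 (r = 0.979) and SUMF2 for PRDX5 (r = 0.996). For the others it was DDX23 for PRDX6 (r = 0.994), PSMC1 for TXN (r = 0.995), CIB1 for TXN2 (r = 0.998) and SORT1 for TXNIP (r = 0.985). With 6 points and so many candidates, values this high are a description only, and between 37 and 617 genes passed r = 0.9 for a given member. Among the members themselves, PRDX5 and PRDX6 ran most alike (r = 0.976), then PRDX1 and PRDX4 (r = 0.937), while PRDX3 ran against TXN2 (r = -0.763), all over the same 6 libraries.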

How the data were processed

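RNA was extracted with TRIzol per the labels' protocols, which also describe a small RNA library. The counts held long mRNAs such as KRT8, at 230878 to 336274 counts per library. Whether that protocol text describes these libraries is not known from the labels. The authors deposited whole-number counts per gene and, separately, FPKM. Per the submitters' processing notes, the genome build was hg38. The sources used here do not give the aligner, the counter or the use of strand. Gene positions in the deposited tables match GENCODE release 29 for all 58735 genes. Deposited FPKM equal count per length and per library constant, which differs from the total count by -4.52% to 4.90%.

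Counts were filtered (filterByExpr, minimum count 10, minimum total 15), scaled by TMM and tested with edgeR 4.0.16 (robust quasi-likelihood, two-sided, Benjamini-Hochberg over 14458 genes, adjusted p under 0.05). CPM are TMM-scaled. Fold changes put OE_GPX3 over Vector, with 95% intervals. The biological coefficient of variation was 0.110. Alternatives used DESeq2 1.42.0, limma 3.58.1 on log2(FPKM + 1), which understates changes of low genes, and a lowess GC offset per library. GC is that of the longest GENCODE transcript. On counts simulated for this comparison (14266 genes), 53 of 67 genes changed 1.5-fold, 67 of 67 changed 2-fold and 66 of 66 changed 4-fold were called, with 21 false calls. The changed genes were drawn from those of at least 5 CPM. Counts were drawn independently for each gene, without a shift by GC content, so these rates may not hold for the real libraries. The members and lists were chosen with earlier results of these data known. Genes named beside the members were the 2 lowest p of each list, any called gene and the most alike gene per member.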

Additional observations from a re-analysis of the deposited data

How the results depend on the processing

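The 8 members were recomputed under 18 alternatives. Of 144 values, 138 kept their direction and their side of the threshold. Some alternatives could hardly move a value, such as the one that added 20 pseudogene counts to the members. No member was called to begin with, so a side of the threshold could change only by a new call. The log2 fold change of TXN turned to 0.038 with the GC correction and to 0.031 with the replicate block and GC correction together. That of TXNIP turned to 0.030 and 0.025 under these, and ran from -0.26 to 0.037 when leaving out each library, turning without OE_GPX3 replicate 3. PRDX5 was called without OE_GPX3 replicate 1. The number of members called was 0 under all other alternatives and 0 to 1 when leaving out a library. Over all genes, where 38 were called, total counts alone gave 68, DESeq2 116, no filter on low counts 129 and the GC correction 4. FPKM with limma gave 4 with a pseudocount of 1 or 0.1 and 1 with no filter. Leaving out a library gave 1 to 657, with 657, 1 and 12 without OE_GPX3 replicates 1, 2 and 3, and 116 and 4 without Vector replicates 1 and 2. The cause of these differences was not tested. The replicate block gave 231 genes and 0 members. Replicate numbers do not mark a shared culture in the labels, and same-numbered libraries deviated together with r = 0.192, 0.0104 and 0.114, so they were not taken as pairs. PRDX2 was not tested because its counts did not pass the filter on low counts. Counting error exceeded the spread between OE_GPX3 libraries for TXNL4B, TXNDC12, TXNDC16 and ARRDC4.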
